A study of Mus musculus with 6 samples.

Results

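The 10 genes described here encode core components of the PI3K, AKT and mTOR pathway. They were chosen by symbol from the 41255 genes listed in the deposited table. Their values in these libraries did not define the choice, although earlier results of these data were known when it was made. All 10 were found and all 10 passed the filter on low values (a mean normalized read count of at least 10 over the 6 libraries). They are the catalytic subunits Pik3ca and Pik3cd, the regulatory subunit Pik3r1, the kinases Akt1 and Akt2, the lipid phosphatase Inpp5d (SHIP1), the inhibitory pair Tsc1 and Tsc2, the kinase Mtor and its partner Rptor (raptor).

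Polyadenylated RNA was sequenced from Ba/F3, a mouse lymphoid line that needs interleukin-3 for growth. Human RPL10 cDNA had been introduced with retroviral vectors, in wild-type form (WT: clones 28, 29 and 36) or carrying the leukemia-associated substitution R98S, serine for arginine at residue 98 of this protein of the large ribosomal subunit (R98S: clones 11, 13 and 35). Both groups also carried a short hairpin RNA against endogenous mouse Rpl10, each culture descended from a single cell, and cycloheximide, a blocker of translation elongation, was applied at 100 μg/ml for 5 min before RNA isolation. With 3 clones per genotype and 1 library each, each SD given with a group mean is a spread between clones. Such spreads include differences that arose when the clones were picked. The SEs and intervals of log2 fold changes come from the limma fit. That fit draws each gene's variance toward a trend over all genes tested, so they are not spreads of that gene's clones alone.

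Class I PI3 kinases pair a catalytic subunit (p110) with a regulatory subunit. Downstream of cytokine receptors such as that for interleukin-3 they phosphorylate membrane phosphoinositides, which recruits AKT for activation, and phosphatases such as SHIP1 act on their lipid product. AKT inhibits the TSC complex, a brake on the small GTPase Rheb, so that mTOR complex 1 can raise protein synthesis and growth, and it also excludes FOXO transcription factors from the nucleus. Activity in this pathway is set largely by phosphorylation, which mRNA levels do not measure.

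The libraries held between 21786776 and 24204991 reads assigned to genes. Rpl10, the knocked-down gene, lay between 1900 and 3156 normalized read counts in WT and between 1883 and 3028 in R98S clones (log2 fold change -0.07, adjusted p = 0.871 by limma). As the knockdown was present in every clone, no library gives its level without it, and reads of the human transgene may be among those counted. By the study's account, cultures were selected by qPCR for strong knockdown of the endogenous gene. Of 5 interleukin-3 receptor and leukocyte markers, 4 were tested and Kit was at 3 reads or fewer in each library. The summed level of this list ranged from 98119 to 118045 in WT and from 134078 to 158695 in R98S clones. It was carried by the receptor subunits Csf2rb and Csf2rb2, both called higher (log2 fold changes 0.53 and 0.62), whereas Ptprc (CD45) was called lower, from 8869 to 14068 in WT against 3366 to 5657 in R98S clones (-1.33, adjusted p = 0.00894 by limma). Among 9 B-lineage markers, Pax5, Vpreb1, Igll1 and Blk were at 3 reads or fewer in each library (sums 1293 to 1400 in WT, 1636 to 1960 in R98S). Cd79b was called higher (1.22), although its groups overlapped (142.9 to 396.3 in WT, 385.8 to 705.2 in R98S clones). The Cd79b call held in 11 of 16 alternative fits. Most of the sum came from Cd79a, from 996.4 to 1194 in WT and from 996.4 to 1507 in R98S clones. Cd79a was not called (adjusted p = 0.449 by limma). T-cell markers summed to between 52.23 and 106.1 in WT and between 151.7 and 179.2 in R98S clones, with Cd3e and Cd4 at 3 reads or fewer and Cd3d and Lck called higher (2.17 and 1.16). Cd3g went the other way, at 3.072, 3.224 and 43.03 in WT clones 28, 29 and 36 against 0.9382 to 1.85 in R98S clones. It was too low to be tested. Myeloid and mast-cell markers summed to between 69.63 and 198.2 in WT and between 47.97 and 450.6 in R98S clones. Cpa3 ranged from 10.24 to 103.2 in WT and from 38.78 to 388.6 in R98S clones, with the highest value in clone 35. Mcpt8 lay between 12.9 and 33.03 in WT and between 0 and 60.05 in R98S clones. Neither gene was called. Lyz2 was called lower, from 4.096 to 43.03 in WT against 0 to 1.85 in R98S clones. Its call was lost without WT clone 29 (adjusted p = 0.117 by limma). Itgam (11.26 to 15.05 against 0 to 4.082) and Mpo (2.002 to 12.29 against 0 to 1.021) were too low to be tested. The part of these marker differences in the results below was not tested. In bulk RNA, fewer cells of a type and less RNA per cell cannot be told apart.

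Upstream sequences are shown for 4 members, since the table gives a single value per gene and these windows show where its transcripts can begin. RefSeq (GRCm38.p6) held promoter windows for 10 of 10 members, 17 in all, because several members have more than 1 annotated start. The 250 bases before the start are printed in the direction of transcription for Pik3ca (chr3:32396815-32397064, plus strand), Pik3r1 at its upstream start (chr13:101768218-101768467, minus strand) and at an internal start (chr13:101692631-101692880, minus strand), Akt1 (chr12:112674885-112675134, minus strand) and Mtor (chr4:148448332-148448581, plus strand). Pik3r1 is the member called below, its pair of windows differing widely in composition. Pik3ca and Mtor are uncalled members with several matches, and Akt1 held the member match to the forkhead core. Capitals mark matches, on either strand, to GGGCGG (a GC box, bound by SP factors), CCAAT (the CCAAT box), TATAAA (the TATA box), CCGGAAG (an ETS core) and GTAAACA (a forkhead core such as FOXO factors bind). No marked match overlaps another.
Pik3ca: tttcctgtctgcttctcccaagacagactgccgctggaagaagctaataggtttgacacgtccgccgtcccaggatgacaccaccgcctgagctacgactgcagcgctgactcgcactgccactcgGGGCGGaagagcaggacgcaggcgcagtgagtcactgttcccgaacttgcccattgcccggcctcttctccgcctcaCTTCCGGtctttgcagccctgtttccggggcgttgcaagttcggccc
Pik3r1 upstream start: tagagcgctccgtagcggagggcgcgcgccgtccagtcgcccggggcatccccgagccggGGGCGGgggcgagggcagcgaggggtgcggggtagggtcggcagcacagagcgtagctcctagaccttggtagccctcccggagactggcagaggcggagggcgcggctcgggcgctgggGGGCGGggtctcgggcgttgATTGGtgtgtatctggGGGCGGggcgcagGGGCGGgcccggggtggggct
Pik3r1 internal start: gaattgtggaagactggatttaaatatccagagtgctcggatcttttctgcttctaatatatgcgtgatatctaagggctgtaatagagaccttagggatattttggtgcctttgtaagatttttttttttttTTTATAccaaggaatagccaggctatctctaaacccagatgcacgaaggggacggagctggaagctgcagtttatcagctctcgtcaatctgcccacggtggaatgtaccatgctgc
Akt1: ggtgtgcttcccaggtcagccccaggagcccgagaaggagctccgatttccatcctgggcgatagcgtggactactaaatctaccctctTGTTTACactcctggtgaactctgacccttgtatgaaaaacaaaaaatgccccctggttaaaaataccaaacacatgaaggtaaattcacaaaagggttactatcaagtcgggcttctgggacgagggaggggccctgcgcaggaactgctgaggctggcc
Mtor: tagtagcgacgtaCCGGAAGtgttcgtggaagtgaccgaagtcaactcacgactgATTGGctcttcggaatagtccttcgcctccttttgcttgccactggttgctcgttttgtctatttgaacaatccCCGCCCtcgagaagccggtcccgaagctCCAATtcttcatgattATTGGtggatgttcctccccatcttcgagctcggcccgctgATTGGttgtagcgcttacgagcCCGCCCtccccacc
The upstream Pik3r1 window was 76.4% G or C and held 4 GC boxes and 1 CCAAT box. By contrast, the internal window was 42.4% G or C and held a TATA match instead. The Akt1 window printed is 1 of 2. The other Akt1 window was 78.4% G or C and held 4 matches to GGGCGG and 0 to the forkhead core. Over the members, GGGCGG occurred for 6 of 10 genes (in 32.7% of all 32851 windows of this length), CCAAT for 3 (33.8% of all windows), CCGGAAG for Pik3ca, Tsc2 and Mtor (6.91%), TATAAA for Pik3r1 (12.4%) and GTAAACA for Akt1 (3.17%). A member with several starts had several chances of a match, so the gene counts and the window shares are not on the same footing. These letter matches describe the sequence and were not tested for binding.

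Comparing R98S with WT clones, 1 of the 10 members was called (limma, Benjamini-Hochberg adjusted p under 0.1), where 23.9% of the 11550 genes tested were called, 10.7% higher and 13.1% lower. The called member was Pik3r1, which was lower. Its groups did not overlap, as for 37.3% of all genes tested. The median log2 fold change of the members was 0.02 and their median absolute log2 fold change 0.07, beside -0.01 and 0.27 over all genes tested. Leaving out WT clone 28, WT clone 29 or R98S clone 11 lowered the number of genes called in the whole table from 2755 to 1322, 1457 and 1560, respectively.

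**Figure D1:**
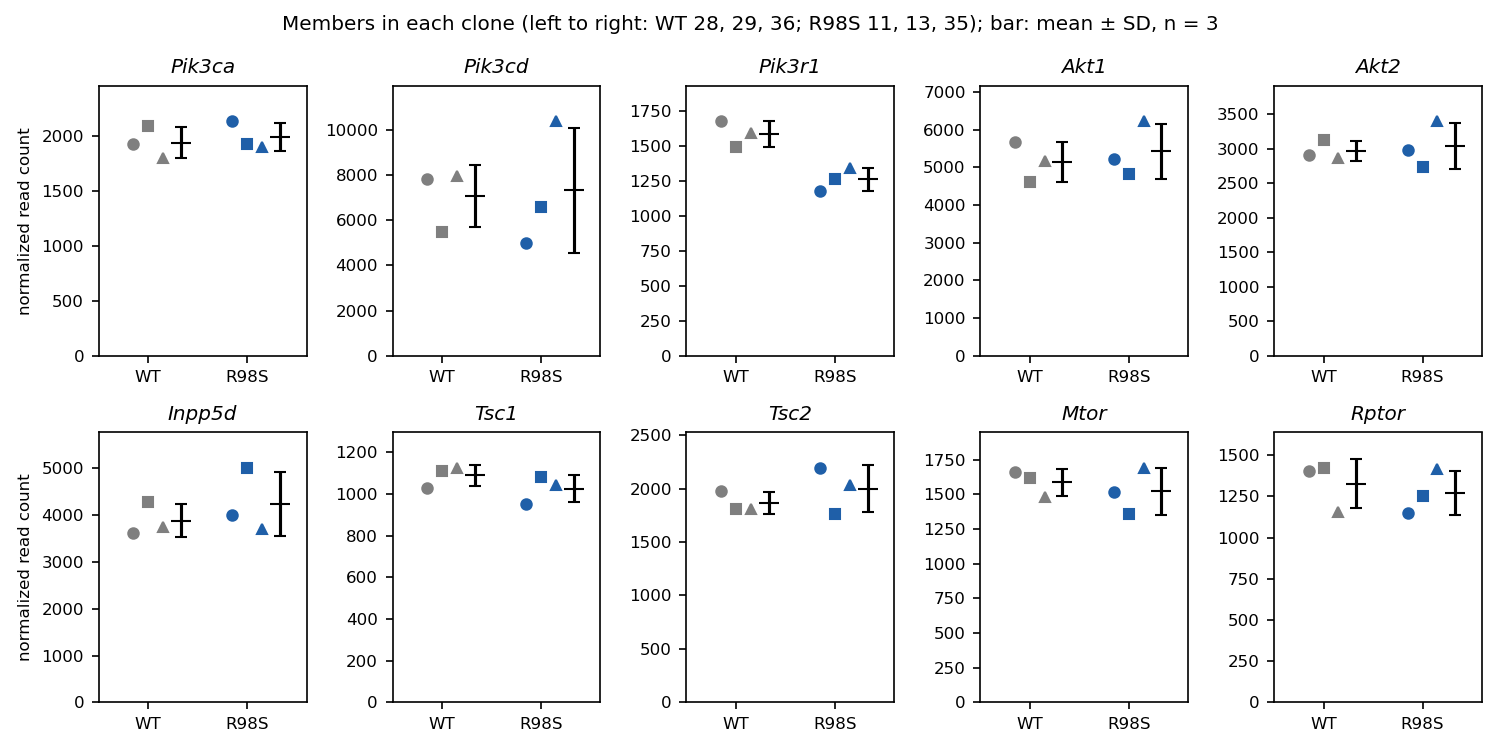
Normalized read count (vertical axes, starting at 0) of the 10 members in each clone, WT in grey and R98S in blue, with the mean and SD (n = 3) beside each group. The values of both genotypes overlap in 9 panels, and in the Pik3r1 panel the 3 R98S clones lie at 1177 to 1340, under the WT clones at 1492 to 1674.

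Pik3r1 encodes the p85α family of regulatory subunits, which stabilize p110, hold it inactive and bring it to phosphotyrosines on activated receptors (chromosome 13, 101680563 to 101768217, minus strand, GRCm38). WT clones 28, 29 and 36 had 1674, 1492 and 1587 normalized read counts, and R98S clones 11, 13 and 35 had 1177, 1264 and 1340. Each R98S clone thus lay below each WT clone. On average WT clones had 1584 ± 91.4 and R98S clones 1260 ± 81.1 (SD, n = 3). This gave a log2 fold change of -0.33 (SE 0.11, 95% interval -0.58 to -0.08, adjusted p = 0.0757 by limma), or 0.795 times the WT level. The direction was the same in 16 of 16 alternative fits, with log2 fold changes between -0.38 and -0.28, but the call held in 8 of them (adjusted p from 0.052 to 0.268). It was lost without WT clone 28 (adjusted p = 0.268 by limma), WT clone 29 (0.14), WT clone 36 (0.127) or R98S clone 11 (0.187), as well as in 4 fits that changed the filter, the scaling or the variance trend. Products of the upstream and the internal start share exons, and their contributions to this value cannot be told apart.

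Pik3ca encodes p110α, the broadly expressed catalytic subunit (chromosome 3, 32397671 to 32468486, plus strand). WT clones 28, 29 and 36 gave 1926, 2088 and 1804 normalized read counts for it, against 2134, 1925 and 1904 for R98S clones 11, 13 and 35. The groups overlapped, with a log2 fold change of 0.04 (95% interval -0.21 to 0.28, adjusted p = 0.846 by limma).

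Pik3cd encodes p110δ, the catalytic subunit enriched in leukocytes (chromosome 4, 149649168 to 149702571, minus strand). Among the members it varied most between clones, with 7804, 5497 and 7948 normalized read counts in WT and 4987, 6593 and 10381 in R98S clones, in the same clone order. The highest and the lowest of the 6 values both came from R98S clones, 35 and 11. The log2 fold change was 0.001 (SE 0.26, adjusted p = 0.999 by limma). Its 95% interval ran from -0.60 to 0.60, so a difference of up to 1.52-fold in either direction was not excluded by these clones. Its between-clone SD of 0.43 on the log2 scale lay at the 84.8th percentile of all genes tested.

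Inpp5d encodes SHIP1, a hematopoietic 5-phosphatase that acts on the lipid product of PI3K (chromosome 1, 87620312 to 87720507, plus strand). Its normalized read counts were 3620, 4273 and 3733 in WT and 3991, 5008 and 3705 in R98S clones. R98S clone 13 held the highest value, and the other two R98S clones were within the WT range. The log2 fold change was 0.12 (95% interval -0.19 to 0.43, adjusted p = 0.584 by limma).

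Akt1, the broadly expressed AKT kinase, lies on chromosome 12 (112653821 to 112674884, minus strand), and Akt2, its paralogue best known for insulin responses, on chromosome 7 (27591552 to 27640826, plus strand). Akt1 had 5659, 4601 and 5154 normalized read counts in WT, against 5217, 4823 and 6220 in R98S clones (log2 fold change 0.07, 95% interval -0.22 to 0.37, adjusted p = 0.733 by limma). Akt2 had 2904, 3125 and 2866 in WT, against 2984, 2733 and 3398 in R98S clones (log2 fold change 0.03, 95% interval -0.23 to 0.29, adjusted p = 0.879 by limma). For both kinases R98S clone 35 was highest, R98S clone 13 was lowest of its group, and the genotypes overlapped.

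Tsc1 (hamartin, which stabilizes its partner) and Tsc2 (tuberin, the GTPase-activating subunit) form the complex that inactivates Rheb. Tsc1 (chromosome 2, 28641228 to 28691167, plus strand) had 1030, 1112 and 1126 normalized read counts in WT and 953.2, 1082 and 1043 in R98S clones, with a log2 fold change of -0.09 (95% interval -0.34 to 0.17, adjusted p = 0.626 by limma). Tsc2 (chromosome 17, 24595816 to 24632630, minus strand) had 1980, 1805 and 1811 in WT and 2195, 1762 and 2035 in R98S clones, with a log2 fold change of 0.09 (95% interval -0.17 to 0.36, adjusted p = 0.619 by limma). Neither gene separated the genotypes. Tsc2 shares 693 exon bases with Pkd1 on the opposite strand, whose mean was 720.3 in WT and 711.8 in R98S clones. The library kit preserves strand, but whether counting used it is not stated in the sources used here.

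Mtor encodes the kinase shared by both mTOR complexes (chromosome 4, 148448611 to 148557683, plus strand). Its normalized read counts were 1664, 1621 and 1479 in WT and 1515, 1356 and 1692 in R98S clones (log2 fold change -0.07, 95% interval -0.34 to 0.21, adjusted p = 0.742 by limma). Rptor, the substrate-binding subunit particular to mTOR complex 1 (chromosome 11, 119602905 to 119899576, plus strand), had 1404, 1424 and 1155 in WT and 1147, 1251 and 1415 in R98S clones (log2 fold change -0.06, 95% interval -0.37 to 0.24, adjusted p = 0.785 by limma). R98S clone 35 was above all WT clones for Mtor and within the WT range for Rptor.

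R98S clone 35 was the highest R98S clone for 6 of the 10 members (Pik3cd, Pik3r1, Akt1, Akt2, Mtor and Rptor). Fitted fold changes lay above 0 for 6 members and below 0 for 4, but this split was not stable. Without R98S clone 35 it became 3 above and 7 below, without WT clone 29 it became 4 and 6, and after each library had been corrected for the median shift among its 30 nearest tested neighbours 2 members lay above 0 and 8 below. No member other than Pik3r1 was called in any of the 16 alternative fits.

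**Figure D2:**
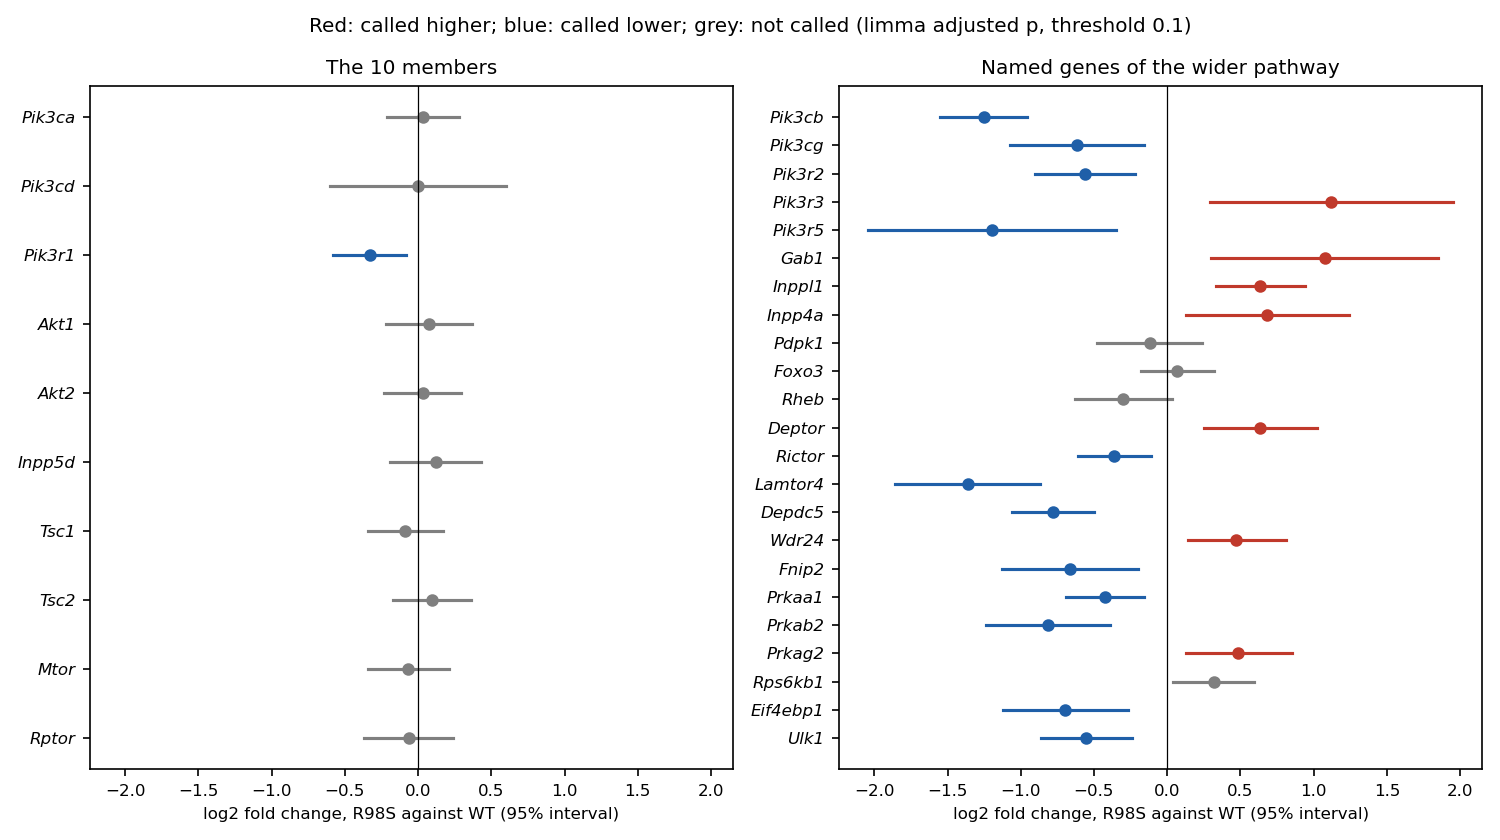
Log2 fold change, R98S against WT, with its 95% interval for the 10 members (left) and the named genes of the wider pathway (right), with called genes in red (higher) or blue (lower) and uncalled genes in grey. In the left panel 9 intervals cross 0 and Pik3r1 lies at -0.33, while the right panel extends from -1.36 (Lamtor4) to 1.12 (Pik3r3).

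Per kilobase of exon, Akt1 was the most abundant member (1288 ± 143 normalized read counts per kb, SD over the 6 libraries) and Tsc1 the least (89.4 ± 5.36). The order was Akt1, Pik3cd (1151 ± 313), Inpp5d (533 ± 69), Akt2 (421 ± 32.7), Pik3ca (216 ± 13.6), Tsc2 (201 ± 17.5), Mtor (154 ± 12.7), Pik3r1 (141 ± 19.2), Rptor (96.5 ± 9.75) and Tsc1. Akt1 and Pik3cd overlapped in range, and Akt1 was above Pik3cd in 4 of 6 libraries. The ranges of Inpp5d and Akt2, of Pik3ca and Tsc2, of Mtor and Pik3r1, and of Rptor and Tsc1 overlapped as well. No overlap was seen between Pik3cd and Inpp5d, Akt2 and Pik3ca, Tsc2 and Mtor, or Pik3r1 and Rptor. The exon length covers all annotated transcripts of a gene, so these levels depend on which of them the cells use.

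Ratios within a library, which do not depend on its scaling, overlapped between genotypes for the 4 pairs examined, with 3 clones against 3 allowing no exact p below 0.1. The Akt1 to Akt2 ratio was 1.74 ± 0.24 in WT and 1.78 ± 0.043 in R98S clones (SD, n = 3, exact two-sided permutation p = 0.9). For Pik3cd to Pik3ca it was 3.7 ± 0.94 and 3.74 ± 1.6 (SD, n = 3, exact permutation p = 1), the R98S clones spanning 2.34 to 5.45. For the partners Tsc1 and Tsc2 it was 0.586 ± 0.057 and 0.52 ± 0.09 (SD, n = 3, exact permutation p = 0.2), and for Rptor and Mtor 0.834 ± 0.05 and 0.839 ± 0.083 (SD, n = 3, exact permutation p = 1).

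The members were next set among their paralogues. Of 6 other PI3K catalytic genes, 2 were called, both lower. Pik3cb, which encodes p110β, had 4476, 4366 and 4158 normalized read counts in WT clones 28, 29 and 36, against 1586, 2156 and 1757 for R98S clones 11, 13 and 35. Its genotypes were far apart, with a log2 fold change of -1.25 (SE 0.13, adjusted p = 0.00124 by limma), and it was called in 16 of 16 alternative fits. Pik3cg, which encodes p110γ, the subunit linked to G protein-coupled receptors, had 12837, 7441 and 10275 in WT and 6246, 7533 and 5792 in R98S clones. Its groups overlapped slightly, with a log2 fold change of -0.62 (SE 0.20, adjusted p = 0.0727 by limma), and 4 single-clone omissions (WT clone 28 or 36, R98S clone 11 or 35) took the call away (adjusted p from 0.136 to 0.21).

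Summed per kilobase, the 4 class I catalytic mRNAs reached 3156 ± 512 in WT and 2417 ± 405 in R98S clones (SD, n = 3), ranges that overlapped. Within this sum Pik3ca contributed 6.93% ± 1.7 in WT and 9.29% ± 2.2 in R98S clones. Pik3cd contributed 35.8% ± 2.7 and 47.4% ± 10, from 33.8% to 38.9% in WT and from 40% to 59.2% in R98S clones. The Pik3cb share was 19.4% ± 3.4 in WT and 10.7% ± 1.8 in R98S clones, and the Pik3cg share 37.9% ± 4.2 and 32.7% ± 7.1. The Pik3cd share therefore did not overlap between genotypes although the Pik3cd level did. These shares sum to a fixed total and were not tested.

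**Figure D3:**
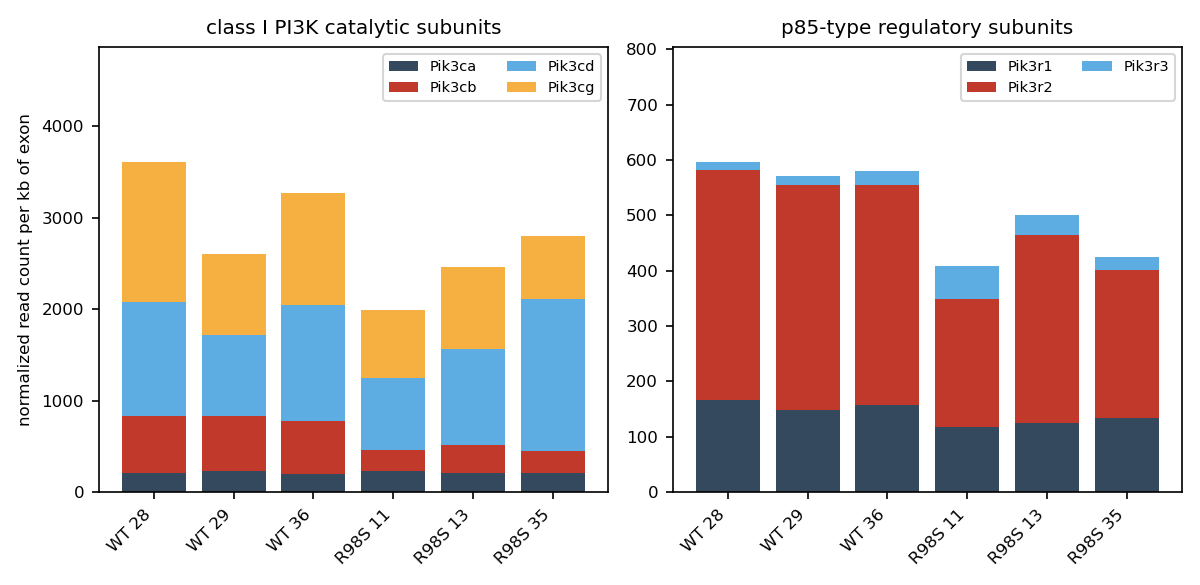
Normalized read count per kb of exon (vertical axes) of the class I catalytic and p85-type regulatory genes, stacked by gene for each of the 6 libraries. The Pik3cb segment lies between 578 and 622 in WT and between 220 and 300 in R98S clones, and the p85-type stacks reach 571 to 596 in WT and 409 to 502 in R98S clones.

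Among other PI3K regulatory subunits and adaptors, 11 of 12 genes were tested, and 2 were called higher and 2 lower. Pik3r2, which encodes p85β, had 1739, 1700 and 1662 normalized read counts in WT and 966.4, 1417 and 1119 in R98S clones (log2 fold change -0.56, SE 0.15, adjusted p = 0.0405 by limma). Pik3r3 (p55γ), a low-abundance relative, had 72.71, 81.67 and 133.1 in WT and 320.9, 196 and 130.4 in R98S clones (log2 fold change 1.12, SE 0.36, adjusted p = 0.0735 by limma). Pik3r2 was separated by genotype, whereas R98S clone 35 fell within the WT range for Pik3r3, which also shares 1289 exon bases with another annotated gene on its strand. Together with Pik3r1, the 3 p85-type mRNAs summed to 582 ± 12.9 per kb in WT and 445 ± 49.5 in R98S clones (SD, n = 3), of which Pik3r1 gave 27% ± 0.97 and 28.3% ± 3.1. Pik3r5, a p110γ partner, was lower (log2 fold change -1.20, adjusted p = 0.0633) and Gab1, a docking adaptor, was higher (1.08, adjusted p = 0.0667), from at most 76.3 in WT to at least 104.1 in R98S clones. Each of these 4 calls was lost on leaving out any of WT clone 28, WT clone 29 or R98S clone 11 (limma adjusted p from 0.109 to 0.208). Leaving out R98S clone 35 also ended those of Pik3r2 and Pik3r5, leaving out R98S clone 13 that of Pik3r3, and leaving out WT clone 36 that of Gab1. Those of Pik3r2 and Pik3r3 also ended after that correction for neighbouring genes (adjusted p = 0.142 and 0.26).

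The 6 phosphoinositide phosphatases beside Inpp5d were all tested, and Inppl1 and Inpp4a were called higher. Inppl1, which encodes SHIP2, the broadly expressed relative of Inpp5d, had 681, 734 and 562.4 normalized read counts in WT and 1030, 998.2 and 1017 in R98S clones (log2 fold change 0.63, SE 0.13, adjusted p = 0.0199 by limma). Its call held in 15 of 16 alternative fits, and was lost after the correction for neighbouring genes (adjusted p = 0.13). Inpp4a, a 4-phosphatase, was higher with a log2 fold change of 0.68 (adjusted p = 0.0954), a call that held in 8 of 16 alternative fits and was lost without WT clone 28 or 29 or R98S clone 11 or 13 (adjusted p from 0.182 to 0.288). For the SHIP pair, then, Inppl1 was higher and Inpp5d was not called. The difference between their fold changes was not tested.

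Of 4 genes for AKT and its direct controls, 0 were called by limma, edgeR or DESeq2, and 0 had an unadjusted limma p under 0.05. Pdpk1, which encodes the kinase PDK1 that activates AKT, lay between 2595 and 3395 normalized read counts in WT and between 2352 and 3307 in R98S clones (log2 fold change -0.12, adjusted p = 0.636). Of 6 AKT substrates, 5 were tested, with 0 called by limma or edgeR, 1 by DESeq2 and 1 at an unadjusted limma p under 0.05. Foxo3 had 1895, 1947 and 2251 in WT and 2061, 2251 and 2069 in R98S clones (log2 fold change 0.07, adjusted p = 0.701 by limma), while Foxo1 had at most 4.096 in any library and was not tested. Of the 3 genes for the third TSC subunit and the Rheb GTPases, 0 were called by limma, edgeR or DESeq2, and 0 had an unadjusted limma p under 0.05. With 23.9% of all genes tested called by limma, counts of 0 in lists as short as these do not show an absence of change. Rheb itself, the activator of mTOR complex 1, had 2137, 2272 and 2018 in WT and 1785, 1431 and 2052 in R98S clones (log2 fold change -0.30, 95% interval -0.63 to 0.03, adjusted p = 0.195 by limma). R98S clone 35 was within the WT range for Rheb and the other two R98S clones lay below it.

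Around Mtor and Rptor, 1 of 6 other complex 1 subunits and assembly factors was called. Deptor, an mTOR inhibitor, had 553, 523.4 and 749.6 normalized read counts in WT and 962.6, 1024 and 828.9 in R98S clones (log2 fold change 0.64, SE 0.17, adjusted p = 0.0404 by limma). In complex 2, 2 of 4 genes were tested and Rictor, its scaffold, was called lower, with 2608, 2622 and 2218 in WT and 2038, 1839 and 1911 in R98S clones (log2 fold change -0.36, SE 0.11, adjusted p = 0.0628 by limma). Both genes were separated by genotype. The Deptor call was lost without WT clone 28 or 29 or R98S clone 11 (adjusted p from 0.118 to 0.14), and the Rictor call without WT clone 28 or 29 or R98S clone 11 or 35 (0.104 to 0.222). Deptor shares 303 exon bases with the antisense gene Gm9920, whose mean was 5.484 in WT and 18.1 in R98S clones. Inppl1 likewise shares 1204 exon bases with the antisense gene Gm10602 (means of 6.557 and 11.15) and Rps6kb1 155 with Rnft1 (863.6 and 860.7), and without strand such reads cannot be told apart.

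Of 29 nutrient-sensing genes upstream of mTOR complex 1, 28 were tested, with 1 called higher and 3 lower. Lamtor4, a subunit of the Ragulator scaffold that anchors RAG GTPases to lysosomes, had 2618, 2300 and 3494 normalized read counts in WT and 797.5, 1243 and 1244 in R98S clones (log2 fold change -1.36, SE 0.22, adjusted p = 0.00751 by limma). Depdc5, a subunit of the inhibitory complex GATOR1, had 994.3, 1094 and 988.8 in WT and 556.4, 588.9 and 647.6 in R98S clones (log2 fold change -0.78, SE 0.12, adjusted p = 0.00696 by limma). Both held in 16 of 16 alternative fits. Fnip2, a folliculin partner, was lower (-0.66, adjusted p = 0.0626) and Wdr24, a subunit of GATOR2, was higher (0.47, adjusted p = 0.0623). These calls were lost without WT clone 28 or 29 or R98S clone 11 or 35 (adjusted p from 0.113 to 0.195), and for Wdr24 also without WT clone 36 (0.101).

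Of 9 genes of the LKB1-AMPK and stress branch, which restrains mTOR complex 1, 6 were tested and 3 called. The share called over all genes tested was 23.9%. The catalytic AMPK subunit Prkaa1 was lower, from 2660 to 3427 in WT against 2198 to 2297 in R98S clones (log2 fold change -0.43, adjusted p = 0.0446 by limma). The regulatory subunit Prkab2 was lower in all 16 alternative fits, from 586.8 to 724.6 in WT against 291.4 to 441.9 in R98S clones (-0.81, adjusted p = 0.0252 by limma). Prkag2 was higher, from 217.1 to 244.7 in WT against 292.9 to 365.4 in R98S clones (0.48, adjusted p = 0.0735 by limma). The Prkaa1 and Prkag2 calls were lost without WT clone 28 or 29 or R98S clone 11 (adjusted p from 0.111 to 0.216), the Prkag2 call also without WT clone 36 (0.116) or R98S clone 35 (0.178). Thus AMPK subunit mRNAs were called in both directions.

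Among 10 outputs of mTOR, 8 were tested, with 0 called higher and 2 lower. Eif4ebp1, the translation repressor that mTOR complex 1 inactivates, had 5162, 5282 and 3435 normalized read counts in WT and 2714, 3279 and 2469 in R98S clones (log2 fold change -0.70, SE 0.19, adjusted p = 0.0418 by limma). Its lowest WT clone lay close to its highest R98S clone, and the call was lost without WT clone 28 or 29 or R98S clone 11 or 35 (adjusted p from 0.12 to 0.139). Ulk1, which starts autophagy and is held back by mTOR complex 1, had 690.2, 722.2 and 859.7 in WT and 488.8, 545 and 510.7 in R98S clones (log2 fold change -0.55, SE 0.13, adjusted p = 0.0315 by limma), and it was called in 16 of 16 alternative fits. Rps6kb1, the S6 kinase gene, had 2467, 2510 and 2046 in WT and 2877, 3162 and 2709 in R98S clones. It was not called although its groups did not overlap (log2 fold change 0.32, SE 0.12, adjusted p = 0.11 by limma), and it passed the threshold in 4 alternative fits (adjusted p over all alternatives from 0.0709 to 0.269).

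Over these lists together, 85 of 95 genes were tested and 20 were called (23.5%, 7 higher and 13 lower), beside 23.9% of all genes tested. Omitting WT clone 28 left 6 calls, WT clone 29 left 9, R98S clone 11 left 7 and R98S clone 35 left 13. The median absolute log2 fold change was 0.24 for the wider lists, 0.27 for all genes and 0.07 for the 10 members. The difference between the members and the wider lists was not tested.

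Genes known as FOXO targets were examined last, since AKT controls FOXO factors. Of 14 listed, 9 passed the filter and 7 of these were called, 0 higher and 7 lower (77.8%, against 13.1% called lower over all genes). The list was drawn up with earlier results of these data known, so the count is not independent evidence of its direction. S1pr1, the receptor for lymphocyte egress, had 908.3, 1139 and 560.4 normalized read counts in WT and 285.2, 160.2 and 52.73 in R98S clones (log2 fold change -2.62, SE 0.55, adjusted p = 0.02 by limma). Ccr7, a homing receptor, had 120.8, 133.3 and 60.05 in WT and 12.2, 28.58 and 10.18 in R98S clones (-2.61, SE 0.46, adjusted p = 0.0114 by limma). Btg1, an antiproliferative gene, had 1036, 1378 and 1190 in WT and 373.4, 519.5 and 312.7 in R98S clones (-1.60, SE 0.20, adjusted p = 0.00326 by limma). These 3 genes were separated by genotype and called in 16 of 16 alternative fits. Other called genes, named after their values were seen, were Txnip (-1.44), Cdkn1b (-0.47) and Insr (-0.43), and the call of Cdkn1b held in 8 of 16 alternative fits and that of Insr in 11. Bcl2l11 (-0.15, adjusted p = 0.616) and Ccng2 (-0.63, adjusted p = 0.175) were not called. S1pr1 and Ccr7 are lymphocyte trafficking genes, and Klf2, a regulator of such genes, had at most 1.021 in any library. Akt1, Akt2 and Foxo3 mRNA, described above, were not called in the same clones. Foxo4 mRNA was not called either (log2 fold change -0.22, adjusted p = 0.308 by limma), and Foxo1 had at most 4.096 in any library. FOXO activity was not measured, and a part of AKT or FOXO factors in these differences was not tested.

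**Figure D4:**
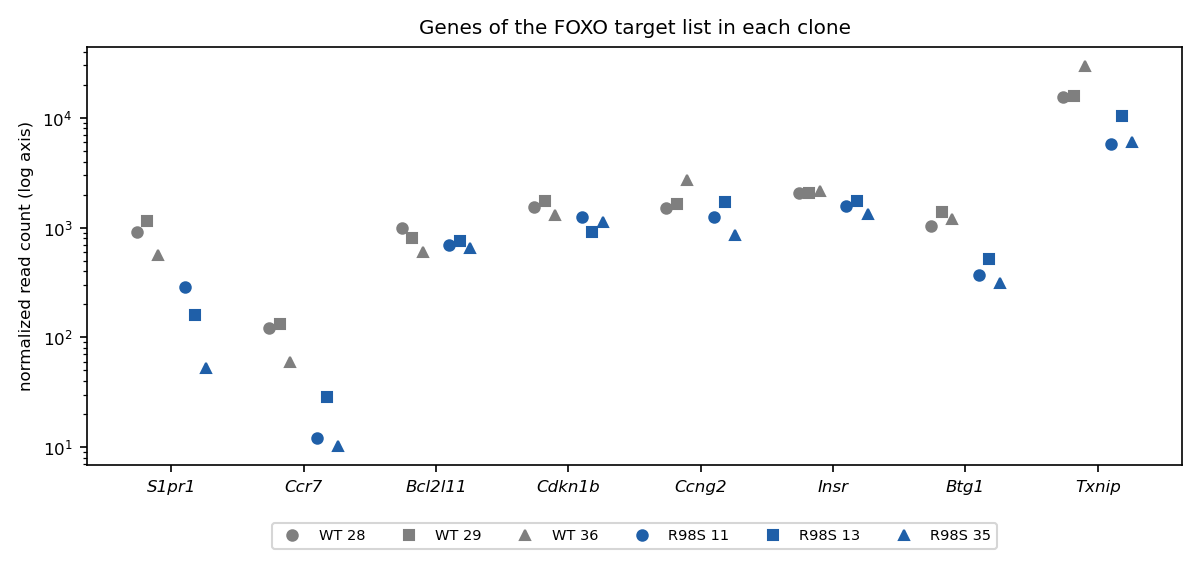
Normalized read count (log axis) of 8 tested FOXO target genes in each clone, WT in grey and R98S in blue, with 1 symbol per clone. The S1pr1 values of the R98S clones lie between 52.73 and 285.2 against 560.4 to 1139 in WT, while the Bcl2l11 and Ccng2 values overlap between genotypes.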

How the data were processed

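Messenger RNA was sequenced from 3 WT and 3 R98S Ba/F3 clones (TruSeq Stranded mRNA libraries, Illumina HiSeq). The study's methods describe removal of reads matching rRNA and tRNA with Bowtie2, and alignment of the rest to mm10 with TopHat. Confidently mapped primary alignments were kept, and mRNA reads were counted on exons. For the rRNA and tRNA step the methods do not name these 6 libraries. SAMtools, HTSeq and DESeq2 are also listed in the submitters' processing notes. Each deposited value is a signal, namely the authors' exonic read count of a gene divided by the DESeq2 size factor of its library. The filter on mapping quality lowers genes with near-identical copies, and the annotation used for counting is not given in the sources used here.

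In each library 100% of values above 0 were whole multiples (tolerance 0.01 reads) of a step between 0.92516 and 1.0746, so reads were recovered by division. For WT clone 36 the step was 1.0008, too close to 1 to establish this independently. Recovered depth was 21786776 to 24204991 reads. A floor of 3 reads was used for markers.

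After adding 1 and taking log2, genotypes were compared in limma 3.58.1 under R 4.3.3 (variance trend on mean intensity) for 11550 genes with a mean of at least 10. The variance of each gene was moderated toward that trend, and SEs and intervals use the moderated variance. Tests were two-sided, adjusted over all genes tested by the Benjamini-Hochberg method, with the study's threshold of 0.1. Fold changes on this scale understate those of weak genes. Alternatives were pseudocounts of 0.5 and 5, a minimum mean of 50 or none, total-count or upper-quartile scaling, no trend, a threshold of 0.05, correction for the median shift among the 30 closest tested neighbours, leaving out each clone, and edgeR 4.0.16 (quasi-likelihood, TMM) and DESeq2 1.42.0 (Wald test) on recovered reads, which called 2746 and 3105 genes. Counts given as of 16 alternative fits cover these except the stricter threshold. As a check of the code, the fit was run on simulated reads with the same added spread for every gene. That run does not show how the fit performs at the spread of these clones. Ratios were compared by exact two-sided permutation tests on log2 ratios. Levels per kb used exon lengths from GENCODE vM21 (GRCm38), which also gave positions.

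The members and lists were chosen with earlier results of these data known. Named were the 10 members, Rpl10, Pik3cb, Pdpk1, Rictor, Rheb, Foxo1, Foxo3 and Rps6kb1 whatever their values, and from each list the called genes, at most the 4 with the largest absolute log2 fold change. Any other gene was named after its values were seen. Some listed genes enter the counts but are not reported here.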

Additional observations from a re-analysis of the deposited data

How the results depend on the processing

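No paired analysis was possible because the clone numbers of the genotypes are all different. At an adjusted p threshold of 0.05, 1722 genes, 0 members and 11 wider pathway genes were called. No member was called without a filter on low values, with scaling to the same total or upper quartile, or without the intensity trend (0 in each case). Leaving out 1 clone gave between 1322 and 3213 genes, 0 to 1 members and 6 to 23 wider pathway genes. The FOXO target count stayed between 5 and 7 in every alternative run.

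With the regional shift removed, log2 fold changes changed sign for Pik3ca (-0.16), Pik3cd (-0.088), Inpp5d (-0.15), Tsc2 (-0.11) and Rpl10 (0.039). None of these genes was called in any fit. Leaving out 1 clone moved Pik3ca between -0.016 and 0.091, Pik3cd between -0.28 and 0.24, Akt1 between -0.029 and 0.154, Akt2 between -0.053 and 0.104, Inpp5d between -0.007 and 0.21, Tsc1 between -0.127 and -0.036, Tsc2 between 0.023 and 0.181, Mtor between -0.146 and 0.014, Rptor between -0.158 and 0.010, Pdpk1 between -0.24 and 0.003 and Rpl10 between -0.28 and 0.13. The libraries whose omission turned a sign were WT clone 36 and R98S clone 11 for Pik3ca, WT clone 29 and R98S clone 35 for Pik3cd and Akt1, R98S clone 35 for Akt2, R98S clone 13 for Inpp5d, Mtor and Pdpk1, R98S clone 11 for Rptor, and WT clone 28, WT clone 29 and R98S clone 13 for Rpl10. The log2 difference of the Akt1 to Akt2 ratio ranged from -0.072 to 0.13, that of Pik3cd to Pik3ca from -0.35 to 0.26, that of Tsc1 to Tsc2 from -0.308 (without R98S clone 13) to -0.058 (without R98S clone 11), beside -0.181 with all clones, and that of Rptor to Mtor from -0.066 to 0.076.

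The median log2 fold change of all genes stayed between -0.02 and 0.03 over the settings, and higher genes made up 45% of calls, or 52.1% with upper-quartile scaling. How much of the spread between clones came from read number was not tested for the members.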
